A study of Arabidopsis thaliana with 3 samples.

Results

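In the first true leaf of Arabidopsis thaliana, 1267 introns after the first intron of a nuclear gene kept most of the reads of their junction in the unspliced form. They were chosen from the deposited table of splicing events as retained introns (class IR) whose junction starts at exon 2 or later, with at least 10 retained reads in each of 3 libraries. Their mean retained share of junction reads over the libraries was 50% or more. These introns lay in 959 genes, out of 9508 later retained introns in 5464 genes with that many reads (17.6% of these genes) and 62909 events in the whole table. The other 8241 later retained introns, at a mean under 50%, are called the remaining later introns below. A further 755 later introns also reached 50% but had fewer than 10 retained reads in some library and were not included.

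The 3 libraries are given as replicates of 1 group, made from pooled first leaves of untreated Col-0 plants. The chamber was at 20 °C and 70% humidity, with 16 h of light and 8 h of dark. RNA had been treated with DNase, and libraries were made with the Illumina TruSeq kit. Nothing in the labels ties the pools to separate plantings or days. Tests over libraries therefore speak of the variation among these 3 preparations, part or all of which may be technical.

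A level is the number of retained reads in percent of all reads assigned to the junction, and ± gives the SD over the 3 libraries (n = 3). It is a share of reads, and how far it follows the share of transcripts was not tested. Junction reads summed to 34587113, 33141594 and 62624801 in replicates 1, 2 and 3, over 46303 listed junctions. The leaf markers RBCS1A, RCA, CA1, LHCB3 and LHCB5 had medians of 44857 to 682042 reads per junction. Of the floral, root and seed markers, AG and SEP3 had 1 listed junction each with 6 to 23 reads, and AP3, PI, RHD6, CRA1, OLEO1 and LEC1 had none.

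Introns are recognised by short sequences at the donor (5′) and acceptor (3′) splice sites, which the U1 snRNP and the U2AF proteins bind first. Retention of a whole intron is the most frequent kind of alternative splicing in plants. Within a coding region a retained intron usually brings in a stop codon, and such transcripts may be held in the nucleus, degraded by nonsense-mediated decay or translated into a shorter protein. An annotated intron can also be an alternative form of a transcript in which the same bases are simply exon.

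The splice sites of 10 introns are given as picked examples, which do not cover the full range of the members. Each donor window below holds 3 exon and 8 intron bases and each acceptor window 20 intron and 3 exon bases, with the first 2 and the last 2 bases of the intron in capitals. Sequences are from the RefSeq genome TAIR10.1. The first 4 introns were at or near 100% and had low scores at both sites by the measure described further down. HBI1 encodes a bHLH transcription factor that promotes growth, EIF4A1 an RNA helicase of translation initiation, and ZTL a blue-light receptor of the clock. AT1G73885 is annotated as an AT-rich interactive domain protein.
HBI1 intron 6, chr2:7952641-7953035, minus strand, donor: tcgGTtttcat
HBI1 intron 6, acceptor: ttctgcaacgaatatctaAGaaa
EIF4A1 intron 5, chr3:4592665-4592704, minus strand, donor: gctGTttgata
EIF4A1 intron 5, acceptor: acaatgtggttgtcgaagAGctg
AT1G73885 intron 3, chr1:27787583-27787661, plus strand, donor: ctaGTttggaa
AT1G73885 intron 3, acceptor: tattggggtgttttaaaaAGcca
ZTL intron 2, chr5:23244216-23244323, plus strand, donor: taaGTgagcta
ZTL intron 2, acceptor: gaaaaagggttctcggttAGgat

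The first 4 of the next windows belong to introns between 50% and 75%, with higher scores at both sites. CCA1 is a MYB factor of the circadian clock, ELF3 a part of the evening complex, U1-70K a protein of the U1 snRNP and U2AF65b the large U2AF subunit. CA1, a beta carbonic anhydrase of the chloroplast, combined a weak donor with a strong acceptor. PnsB2, a subunit of the chloroplast NADH dehydrogenase-like complex, is shown because an exon skip spans its intron.
CCA1 intron 4, chr2:19246385-19246862, plus strand, donor: aagGTaaaatc
CCA1 intron 4, acceptor: actactctcatctctctcAGgta
U1-70K intron 6, chr3:18827440-18828348, minus strand, donor: cggGTaggtta
U1-70K intron 6, acceptor: cttcttctgaaacttctcAGgtt
ELF3 intron 2, chr2:11060837-11062016, plus strand, donor: caaGTaagttc
ELF3 intron 2, acceptor: gactctgtttctcattacAGtca
U2AF65b intron 4, chr1:22425297-22425926, plus strand, donor: cagGTatttgc
U2AF65b intron 4, acceptor: catactactttacctagcAGgcc
CA1 intron 9, chr3:194892-195178, minus strand, donor: tctGTatgaac
CA1 intron 9, acceptor: ttttctatgttgtttggtAGgtt
PnsB2 intron 3, chr1:24058656-24059217, plus strand, donor: ttaGTactaaa
PnsB2 intron 3, acceptor: ttggaatttgaatttttcAGggg

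The levels, which chose the members and are given as a description, crowded at the top of the scale. The median mean level was 93.7% (quartiles 66.6% and 100%). All reads were retained ones in all libraries for 454 introns, 521 lay at 99% or more, 692 at 90% or more, and 215 between 50% and 60%. In single libraries 1123 members stayed at 50% or more in all 3, and 144 lay below 50% in at least 1. The library medians were 95.8%, 94.5% and 93.3% in replicates 1, 2 and 3. The members' junctions had 273 reads over the 3 libraries at the median, and the median of their retained reads was 221. Junctions of the remaining later introns had 1323 reads at the median. The selection itself favours this contrast, since the read minimum was set on retained reads. An intron with a low retained share needed a deeper junction to reach it. The remaining later introns, at a median level of 8.77%, were thus selected for well-read junctions. How far this selection shaped the other comparisons of members with the remaining later introns was not tested. Retained reads exceeded 1000 at few junctions (152 members), and 291 members had fewer than 100.

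**Figure D1:**
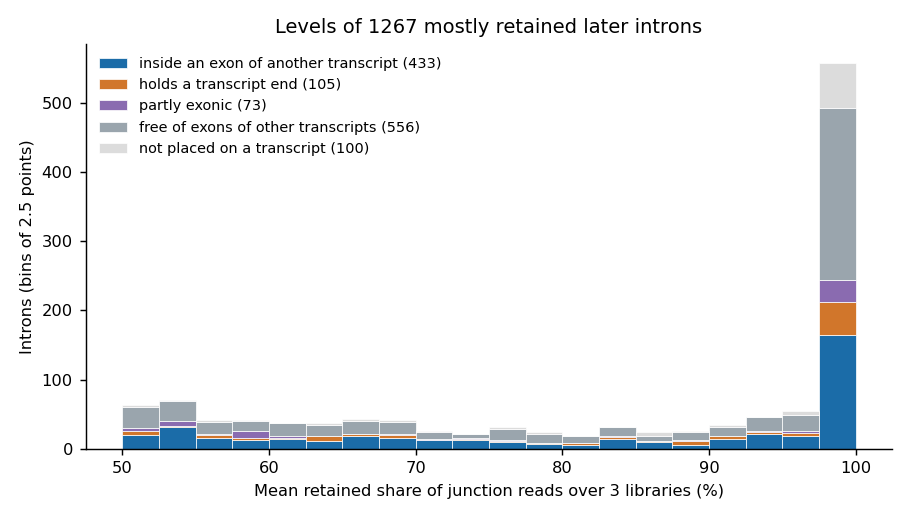
Number of members by mean retained share of junction reads over the 3 libraries (x axis, percent, bins of 2.5 points), with colours for what the annotation shows at the intron. The tallest bar is the last one, which includes the 454 members at 100%, and all 5 annotation groups reach from the lowest levels to the top.

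The members with the most retained reads included several abundant leaf transcripts. CA1 intron 9 (287 nt, coding region) had 57519, 43054 and 84589 retained reads and levels of 95.01%, 95.98% and 95.33% in replicates 1, 2 and 3. Its libraries lay within 1 point of each other, and the gene's other 8 introns were between 0.0556% and 2.32%. EXPA1, an expansin that loosens cell walls, held 99.1%, 98.8% and 99.2% at intron 3, a coding intron of 74 nt. The 3 libraries again lay close together, although replicate 2 had only 2978 of the 33852 retained reads.

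EIF4A1 intron 5 spans only 40 nt and stood at 100%, 99.96% and 99.97% in replicates 1, 2 and 3, with 12798 retained reads in all. HBI1 intron 6 (395 nt) had 3646, 2718 and 5850 reads, all of them retained. AT1G19000, annotated as a homeodomain-like protein, was at 82.4%, 86.1% and 81.3% at intron 3 in its 3′ UTR, highest in replicate 2. The noncoding gene AT4G13495 had 64.0%, 60.6% and 57.7% at intron 2 (chr4, 2621 nt), and exons of the microRNA precursors MIR850 and MIR5026 lie on the same strand within this intron. Replicate 1 was highest, and the gene's other listed intron stood at 0.0820%.

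Some of the most read members had near copies elsewhere in the genome or could not be placed on it. LpxC3, annotated as a UDP-3-O-acyl N-acetylglycosamine deacetylase, had 60.1%, 52.8% and 52.1% at intron 3, highest in replicate 1. No annotated LpxC3 transcript has enough introns for the listed numbers, so this intron was not placed on the genome. Near copies of it were therefore not sought. AT1G25175, a noncoding gene, had 58.9%, 48.8% and 49.3% at intron 2 and 82.9%, 83.7% and 83.2% at intron 3. Each of these AT1G25175 introns has 3 near copies elsewhere in the genome (98% identity over 90% of the intron). Reads of such an intron could be split between copies or counted at several. LpxC3 intron 2 had 74, 25 and 68 retained reads and AT1G25175 intron 1 had 73, 25 and 68. Whether LpxC3 and AT1G25175 share reads was not tested. Near copies existed for 60 placed members (5.14%, Wilson 95% interval 4.02 to 6.56) and 0.954% of the remaining later introns.

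**Figure D2:**
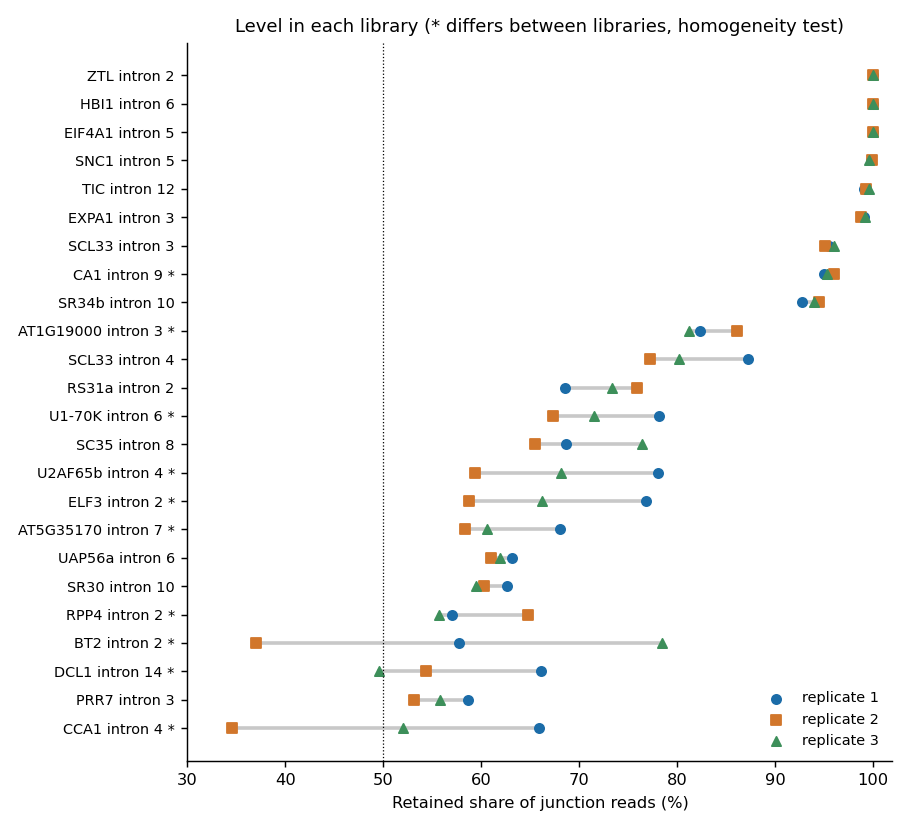
Retained share of junction reads (x axis, percent) in each of the 3 libraries for 24 of the members named in the text, ordered by mean level. Symbols are the libraries, grey lines join the lowest and the highest, the dotted line is 50%, and a star marks introns that differed between libraries in the homogeneity test. Introns near 100% overlap closely, while CCA1 intron 4 reached from 34.5% to 65.9%.

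Many members were introns in 1 annotated transcript and exon in another. Of the 1267 members, 1167 (92.1%) could be placed on an annotated transcript, as could 8178 of the remaining later introns (99.2%). Among placed members 433 (37.1%, Wilson 95% interval 34.4 to 39.9) lay whole inside an exon of another transcript of the same gene, against 16.4% (15.6 to 17.3) of the remaining later introns. A start or end of another transcript lay within 105 members (9.0%), against 2.42%, and 73 members (6.26%) overlapped another transcript's exon in part, against 3.44%. The other 556 members (47.6%, interval 44.8 to 50.5) held no exon of another transcript, against 77.7%. These shares, and those that follow, are descriptions without a test, since introns of a gene share their source and are not replicates.

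The number of annotated transcripts also differed between the groups, and its part in these shares was not tested beyond the following split. A second annotated transcript of the gene existed for 78.3% of the placed members and 68.5% of the remaining later introns that were placed. Within such genes the share inside an exon was 47.4% for members, against 24.0%. In 53.5% of these members and 16.1% of the remaining later introns, no other transcript removed the same intron. Among members the share inside an exon was 37.8% to 45.2% in the 6 bins below 100% and 30.8% at 100%. Among the remaining later introns it was 1.95% for those retained under 1% and 34.3% for those at 25 to 50%. Had introns been numbered on the lowest-numbered transcript instead, 25.97% of the 1009 members placed on it would have lain inside an exon. The remaining later introns were not placed that way.

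Examples of the 433 include CA1 intron 9, which lies within an exon in 2 of 3 other transcripts, EXPA1 intron 3 (3 of 4), EIF4A1 intron 5 (3 of 4) and TIC intron 12 (2 of 2). TIC is a clock regulator, and this coding intron of 73 nt stood at 99.05%, 99.3% and 99.6% in replicates 1, 2 and 3. Its 3 libraries differed by less than 1 point.

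Among members with no exon of another transcript inside them, AT5G35170, annotated as an adenylate kinase, had 68.0%, 58.3% and 60.5% at intron 7 (425 nt), highest in replicate 1. UAP56a, an RNA helicase of splicing and mRNA export, had 63.1%, 61.0% and 61.9% at intron 6 (chr5:3554940-3555623, 684 nt). Its libraries agreed to within about 2 points, and intron 3 was the only other listed UAP56a intron above 2%, at 17.2% ± 2.60. AT4G32060, annotated as an EF-hand calcium-binding protein, had 65.2%, 53.0% and 54.9% at intron 4, again highest in replicate 1.

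Exons of other genes overlapped some members. An exon of another gene lay within 131 members (11.2%), against 2.40% of the remaining later introns, and in 106 members (9.08%) it was on the opposite strand. No source says whether the libraries kept strand, and reads of the 2 strands cannot be told apart at these introns. Near copies and other genes' exons were absent from 979 members, of which 40.9% lay inside an exon of another transcript of their own gene.

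The splice sites of the members had lower median scores than those of the remaining later introns, and the lowest where no spliced read was seen. A site was scored by the sum of log2 odds of its bases, in bits, from 136028 annotated introns against the genome's base composition. The median donor score was 5.59 for members (quartiles 3.27 and 7.48) and 6.90 for the remaining later introns (5.36 and 8.26). For acceptors the medians were 5.88 (3.32 and 8.37) and 7.54 (5.47 and 9.48). The quartile ranges of the groups overlap. The medians were 5.57 and 5.89 in the 979 members without near copies and other genes' exons.

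Within the members the donor scores were lowest near the top of the scale. Donor medians lay between 6.30 and 6.90 in the 4 bins from 50% to 90%, at 6.01 from 90% to 99%, at 4.70 from 99% to just under 100%, and at 3.85 for members at 100%. Acceptor medians were 6.88 at 50 to 60% and 4.46 at 100%. A donor score below 0 occurred in 48 members (4.11%), 29 of them at 100%, against 0.697% of the remaining later introns. Acceptor scores below 0 occurred in 96 members (8.23%), 56 of them at 100%, against 1.60%. EIF4A1 intron 5 and HBI1 intron 6, printed above, are examples with acceptor scores of -1.40 and -1.41. SNC1 intron 5 is another, at -0.56, if the intron lies where the chosen transcript puts it.

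**Figure D3:**
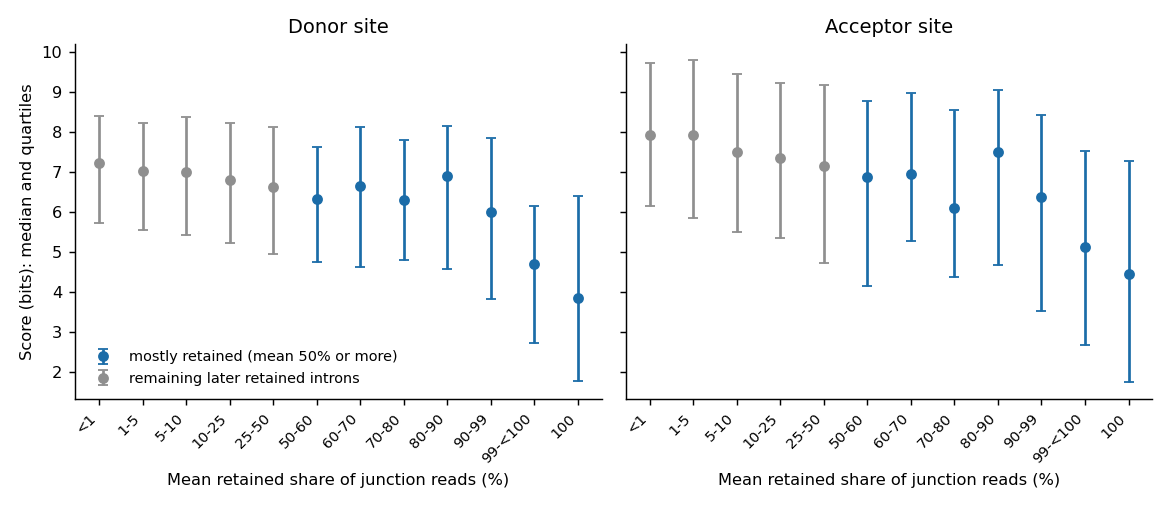
Donor (left) and acceptor (right) splice-site scores in bits (y axis) by mean retained share of junction reads (x axis, percent), as medians with quartiles. Members are in blue and the remaining later introns in grey, and the lowest medians, 3.85 and 4.46, are those of members at 100%.

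The terminal dinucleotides had similar frequencies in both groups. GT-AG ends were found in 98.03% of members and 98.04% of the remaining later introns, and GC-AG ends in 1.71% and 1.64%. The bases beside them had less similar frequencies. Donors starting GTAAG made up 10.6% of members and 17.05% of the remaining later introns. Acceptors ending CAG made up 51.1% and 64.7%, and those ending AAG or GAG 21.9% and 8.11%. At 100% retained, 33.3% of members ended in AAG or GAG.

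The members' introns varied widely in length and lay mostly between coding exons. The median length was 136 nt (quartiles 88.5 and 306), against 115 nt (88 and 249), and the lengths ran from 26 to 5338 nt, with 47 members of 1000 nt or more. The median GC content was 34.8%, against 33.3%. Coding introns made up 88.3% of members and 97.3% of the remaining later introns. Introns of the 3′ UTR made up 7.37% and 2.01%, those of the 5′ UTR 2.40% and 0.526%, and those of noncoding transcripts 1.97% and 0.159%. The last intron of the transcript was the retained one in 34.6% of members, against 25.8%.

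A length divisible by 3 was found in 33.2% of members and 33.1% of the remaining later introns. Introns between codons (phase 0) made up 44.5% of coding members (Wilson 95% interval 41.5 to 47.5), against 56.0% (54.9 to 57.0), and those after the first codon base (phase 1) 29.9%, against 21.1%. An in-frame stop codon lay within 918 of 1030 coding members (89.1%, interval 87.1 to 90.9), against 91.8% (91.2 to 92.4). Only 31 coding members (3.01%) were divisible by 3 and free of stops, against 1.82%, so that both forms keep the frame. The most read of these was intron 5 of SNC1, an immune receptor with a TIR domain, which had 99.8%, 99.9% and 99.6% retained reads and differed by less than 1 point between libraries. Its place is not settled, since equally good transcripts put it at different positions. AT1G77800, annotated as a PHD finger protein, had 97.1%, 97.5% and 94.9% at intron 6 (207 nt), lowest in replicate 3. AT4G19510, annotated as a disease resistance protein with a TIR domain, had 94.5%, 97.5% and 94.4% at intron 2 (111 nt), which lies within an exon in 8 of 9 other transcripts. Intron 9 of AT2G24690, a B3-family factor, had retained reads alone (165 nt).

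For some members the high level was that of 1 intron, and for others most listed introns of the gene were high. Another retained intron was listed in the gene for 1201 members. Such introns were taken at any read number and include other members, while introns without a listed retention are left out. The median level of those other introns was 19.2% for members (quartiles 5.69% and 62.5%) and 3.23% for the remaining later introns (1.39% and 7.27%). It was under 10% for 434 members (36.1%), against 83.1% of the remaining later introns, and 50% or more for 402 members (33.5%), against 1.60%. In the first of these groups of members 44.4% lay inside an exon of another transcript and 1.71% had a near copy. In the second, 21.1% lay inside an exon and 11.7% had a near copy.

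**Figure D4:**
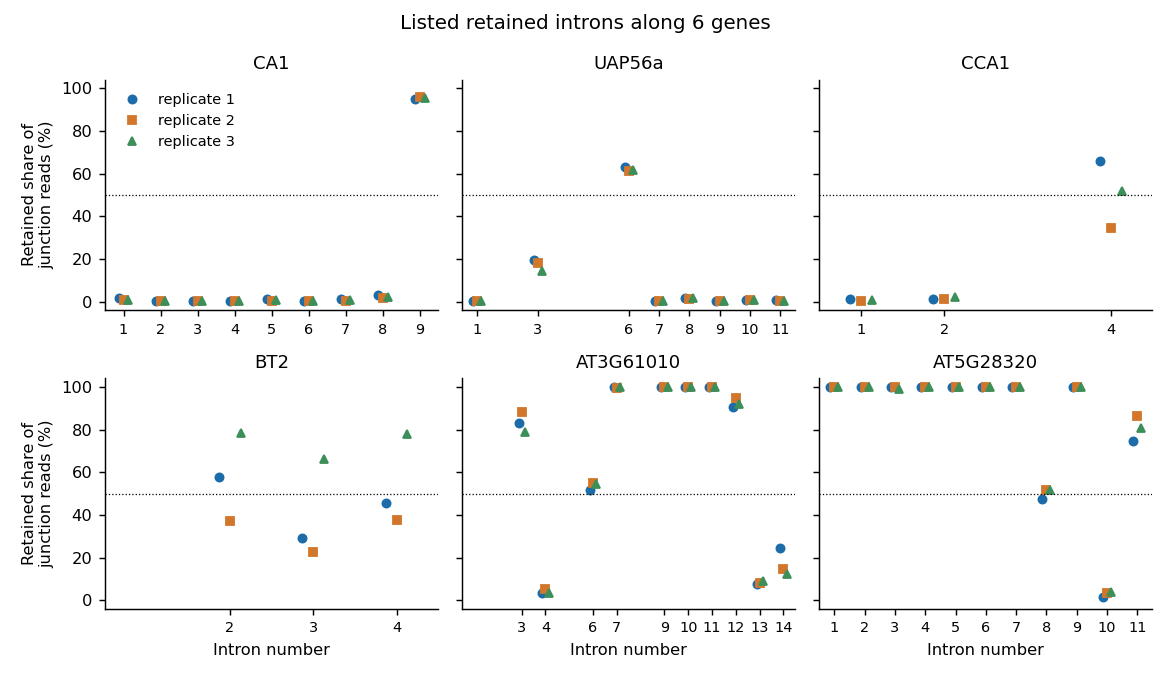
Retained share of junction reads (y axis, percent) at each listed retained intron (x axis, intron number) of 6 genes in the 3 libraries, with the dotted line at 50%. In CA1, UAP56a and CCA1 a single intron is high among low ones, in BT2 the 3 listed introns vary together between libraries, and in AT3G61010 and AT5G28320 most listed introns are high.

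Most genes held 1 member (763), while 134 held 2 and 62 held 3 or more, and in 150 genes members were neighbours along the transcript. AT5G28320, annotated as an embryo defective protein, had 9 members. Introns 1 to 7 and 9 stood at 99.7% or 100%, of which intron 1 is no member, intron 10 was at 2.84% ± 1.40, and intron 8 was at 50.3% ± 2.49. All 9 members have a near copy elsewhere, and exons of the pseudogene AT5G28330 overlap intron 11. AT4G05631, an uncharacterized protein, had 8 members, and at its 9 introns, intron 1 included, the table lists retained reads alone, 7 to 231 per intron and library. AT3G61010, annotated as ferritin or ribonucleotide reductase-like, and AT5G27300, a pentatricopeptide repeat protein, had 7 members each. In AT3G61010 introns 9, 10 and 11 were at 100% in all libraries, while intron 4 was at 3.97% ± 1.07 and intron 13 at 8.14% ± 0.692. AT1G34315 had 6 members.

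The reads at a member's junction could be many more or far fewer than the median of its gene's other listed junctions. For 1012 members the junction total was compared with the median of the gene's other listed junctions, and the median ratio was 1.20 (quartiles 0.766 and 1.78), against 1.04 (0.878 and 1.23) for the remaining later introns. It was 2 or more in 193 members (19.1%), against 1.89%, and 0.5 or less in 160 members (15.8%), against 1.03%. A retained intron offers more bases to read than a splice junction, but no source states how such reads were counted. The part of length in the ratio and in the levels was not tested. The median length was 196 nt in the 193 deep members and 142.5 nt in the 160 shallow ones.

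At the shallow end a level of 100% was a share of very few of the gene's reads. PSY, phytoene synthase of carotenoid synthesis, had 15, 15 and 46 reads at intron 3 and 183 over the 3 libraries at intron 4, all retained. Those totals were 0.00616 and 0.0152 times the median of the gene's other junctions. SYTA, a synaptotagmin, had 18, 14 and 29 retained reads at intron 7 and 22, 12 and 29 at intron 8, at ratios of 0.0108 and 0.0113. At the deep end AT1G22520 intron 4, AT3G26020 intron 3 and AT2G41945 intron 8 had 54.7, 19.8 and 17.5 times the median of other listed junctions. Those medians came from junctions with few reads, and each gene also had a well-read one. In replicate 1 the members had 372, 221 and 121 reads. In that library AT1G22520 intron 1 had 248, AT3G26020 intron 1 had 169 and AT2G41945 intron 2 had 123. AT1G22520 is annotated as a Mic10-like protein and AT3G26020 as a regulatory subunit of protein phosphatase 2A. The highest ratio, 191.4 in AT1G78030 intron 2, rested mainly on replicate 1, where it was 505, against 31.7 and 37.5 in replicates 2 and 3. In replicate 1 introns 1 and 4 of this gene had 1 read each. LpxC3 intron 3, which was not placed, had a ratio of 36.1. In replicate 1 it had 13920 junction reads, against 237 to 5902 at the other listed LpxC3 introns.

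Exon skips listed for the same gene spanned 161 members (12.7%, Wilson 95% interval 10.99 to 14.7) in 114 genes, against 6.09% of the remaining later introns. Skip reads are not part of a junction's total. When they were added, the median level of these 161 members was 18.1%, against 96.4% without them. Of the 161, 117 then lay under 50% and 50 of these under 10%, while 44 stayed at 50% or more. These 117 introns are therefore mostly retained only among the reads that do not skip them. Skips spanned 80 of the 160 shallow members and 6 of the 193 deep ones (3.11%).

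**Figure D5:**
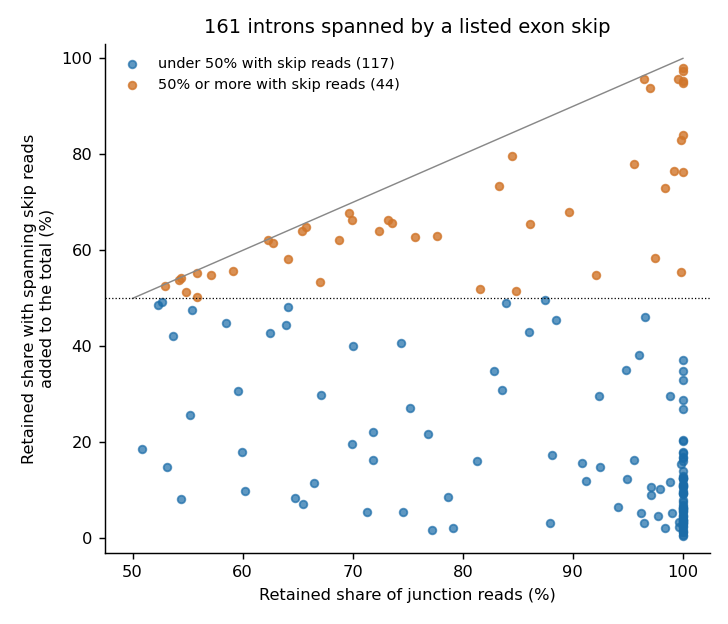
Retained share of junction reads (x axis, percent) and the same share after reads of spanning exon skips were added to the total (y axis, percent) for the 161 members with such a skip. The grey line marks equal values and the dotted line 50%, and 117 points lie under the dotted line, many of them at the right edge near 0.

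The most skip reads, 35541, spanned intron 2 of AT5G54940, annotated as a SUI1-family translation initiation factor. It had 96.9%, 95.9% and 98.5% retained reads without them, and 12.05%, 6.0% and 13.9% with them. In PSY, 12521 reads joined exons across introns 3 and 4, and the levels with them were 0.561% ± 0.164 and 1.38% ± 0.277. PnsB2 intron 3 had 32, 14 and 32 retained reads and no spliced one, and with 9789 skip reads its level was 0.790% ± 0.255. GPRI1, the GLK1 factor that drives chloroplast development, had 100%, 96.2% and 98.9% at intron 2, and 2.09% ± 0.578 with 8035 skip reads.

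The same held for 4 neighbouring introns of UAP56b, which with UAP56a encodes the splicing and export helicase. Introns 6 to 9 were at 99.9%, 100%, 98.8% and 94.9%, and at 15.5%, 14.05%, 11.8% and 12.5% with 2799 skip reads. The calmodulin genes CAM1 and CAM4 each had intron 2 among them, at 100% and 77.2%, and at 1.43% and 1.77% with skip reads. In contrast SCL33 intron 3 kept 78.0% ± 3.66 with 420 skip reads, and intron 3 of AT1G25175 kept 73.5% ± 0.925. The same 2352 skip reads spanned intron 2 of AT1G25175, which went from 52.3% to 48.6% ± 5.87.

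Members occurred in 6 of the 15 SR protein genes and 5 of the 12 other splicing factor genes that had a later retained intron with enough reads. Over all such genes the share with a member was 17.6%. SR proteins bind exonic sequences and guide splice-site choice. The lists here and below are short and were chosen with earlier results of these data known, and no test was made on their counts. SCL33 had 95.5%, 95.1% and 96.1% at intron 3 and 87.2%, 77.2% and 80.2% at intron 4. The libraries were close at intron 3, and replicate 1 was highest at intron 4, which fell to 52.0% ± 8.06 with skip reads. SR30 had 62.7%, 60.3% and 59.4% at intron 10, where junction reads were 2.28 times the median of its other listed junctions. RS31a had 68.6%, 75.9% and 73.3% at intron 2. Equally good transcripts place the introns of SR30, RS31a and RS2Z32 named here differently. On the chosen one an antisense noncoding gene overlaps that of RS31a. SR34b stood at 93.7% ± 0.906 at intron 10, with 92.7%, 94.5% and 93.96% in the libraries. SC35 had 68.7%, 65.5% and 76.4% at intron 8 (3′ UTR), highest in replicate 3, and RS2Z32 had 55.3%, 50.4% and 52.4% at intron 2, highest in replicate 1.

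Core factors of splice-site recognition were among the other splicing factors. U1-70K intron 6 (909 nt) had 78.1%, 67.3% and 71.6%, highest in replicate 1 and lowest in replicate 2. U2AF65b intron 4 (630 nt) had 78.1%, 59.4% and 68.1%, in the same order. U2AF65a intron 11 had 55.4%, 50.8% and 51.8%, and both U2AF65 genes spliced their other listed introns to medians under 2%. U2AF35b intron 2 (3′ UTR, 650 nt, with an antisense noncoding gene) was at 99.9% ± 0.132, and PTB3, a polypyrimidine tract-binding protein, had 59.6%, 46.1% and 49.4% at intron 12. Of these the homogeneity test described below called U1-70K and U2AF65b, and not U2AF65a, U2AF35b or PTB3. The place of the U2AF65a intron is not settled either.

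Clock genes held a member in 5 of 10 cases, against 17.6% over all genes. CCA1 intron 4 (478 nt, holding a start or end of another transcript) had 65.9%, 34.5% and 52.1%, a range of 31.3 points with replicate 2 lowest, while the other CCA1 introns listed were at most at 1.40%. ELF3 intron 2 (1180 nt) had 76.9%, 58.7% and 66.3%, likewise lowest in replicate 2. PRR7, a repressor of CCA1, had 58.6%, 53.1% and 55.8% at intron 3 (133 nt), with the same order in a narrower range. ZTL intron 2 had 451, 505 and 805 reads, all retained.

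Immune receptor genes held a member in 3 of 5 cases, against 17.6% over all genes. RPP4, a receptor for downy mildew, had 57.0%, 64.7% and 55.7% at intron 2, 51.7%, 57.0% and 54.5% at intron 3, and 56.4%, 52.9% and 50% at intron 5. Replicate 2 was highest at introns 2 and 3 and replicate 1 at intron 5. RPP4 intron 3 has 1 near copy elsewhere in the genome. The other listed RPP4 introns, 1 and 4, were at 68.5% and 38.8%. RPS6, a receptor for bacterial effectors, had 80.9%, 77.4% and 72.6% at intron 10 in its 3′ UTR, highest in replicate 1.

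The dicer gene DCL1, which processes microRNAs, had 66.1%, 54.3% and 49.6% at intron 14 (chr1, 276 nt). The microRNA precursor MIR838 lies in this intron on the same strand. DCL2, which makes small interfering RNAs, had 60%, 57.1% and 53.7% at intron 2 and 55.3%, 59.6% and 53.6% at intron 12. Against 17.6% over all genes, 2 of 4 small RNA genes held a member. Of 7 flowering genes, the RNA-binding regulators FCA and FPA did. FCA had 70.6%, 78.6% and 79.5% at intron 3, lowest in replicate 1, and FPA had 55.1%, 57.8% and 50.5% at intron 5, lowest in replicate 3. The FPA intron is not settled in place, and on the chosen transcript an antisense noncoding gene, AT2G09470, overlaps it.

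Of 17 photosynthesis genes only CA1 had a member, and the median level of the list's 41 later introns was 0.688%. None occurred in the 12 light-signalling genes, the 3 nonsense-mediated decay genes, the 4 abscisic acid genes, the 4 auxin genes or the 1 stress gene with a later intron. In the listed genes 15 of the 28 members lay inside an exon of another transcript, 6 of them with a place that is not settled, and for 14 of the 26 with another listed intron the other introns were at a median under 10%.

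Levels differed between libraries beyond counting error in a minority of the members. A chi-square test of homogeneity, adjusted by Benjamini-Hochberg over 61526 nuclear events, called 119 of the 813 members with a spliced read at an adjusted p under 0.05 (14.6%). It called 10.4% of all nuclear events and 23.5% of the 9054 later retained introns with at least 10 retained reads in each library, so the members' share lay between these backgrounds. Called members had more reads (774 per junction at the median, against 307.5 for those not called), a median range of 16.2 points, against 7.51, and in 46 of them the range was 20 points or more. In the listed genes it called 7 of the 28 members: CA1 intron 9, U1-70K intron 6, U2AF65b intron 4, CCA1 intron 4, ELF3 intron 2, RPP4 intron 2 and DCL1 intron 14. At introns the test did not call, the order of the libraries is a description only. The count over all members was 29 without replicate 1, 78 without replicate 2 and 74 without replicate 3.

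Replicate 1 most often had the highest level, in 363 of the 813 members and in 68 of the 119 called, against 127 and 17 for replicate 3. Among called introns replicate 1 was highest in 57.1% of members and 56.2% of the remaining later introns. Across the 813 members, which share libraries and often genes, Pearson's r between libraries was 0.799 (replicates 1 and 2), 0.855 (1 and 3) and 0.875 (2 and 3), as a description.

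Among called members the widest ranges mostly rested on few reads. AT1G30550 intron 11 had 100%, 45.8% and 50%, highest in replicate 1, on 74 junction reads (adjusted p = 0.00473, chi-square test of homogeneity). SULTR1;2, a sulfate transporter, had 50%, 95.3% and 72.2% at intron 11 on 78 retained reads. AT5G11470, also named IBM2 and annotated as a BAH domain protein, had 52.8%, 78.9% and 32.6% at intron 11 on 98 reads. Replicate 2 was highest in both, and in SULTR1;2 it was highest at every listed intron. SULTR1;2 intron 12, for example, had 92.4%, 97.9% and 87.2%.

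BT2, a BTB and TAZ domain protein, had the most junction reads among the 10 called members with the widest ranges. It had 57.8%, 37.0% and 78.4% at intron 2 and 45.6%, 37.7% and 78.0% at intron 4, so replicate 3 was highest and replicate 2 lowest at both. Intron 4 had 90, 7711 and 1087 junction reads in replicates 1, 2 and 3. The library with the most reads at this junction had the lowest level and the one with the fewest the middle one. Over all listed junctions replicate 2 had the fewest reads, 33141594, against 34587113 and 62624801 in replicates 1 and 3. The part of BT2 read number in the difference was not tested. Intron 3 of BT2, no member at 39.4% ± 23.5, had the same order of libraries.

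Introns at the threshold differed little from those just under it. Just inside were RAD52-1 intron 3 at 50.01%, AT5G41120 intron 5 at 50.02% and HEME1 intron 6, of a uroporphyrinogen decarboxylase, at 50.03%. Just outside were CYP704A2 intron 2 at 49.96%, AT3G09410 intron 7 at 49.95% and AT4G31410 intron 3 at 49.92%. Their SDs over the libraries, 2.87 to 14.5 points, were far larger than these distances from 50%.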

How the data were processed

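The deposited table gives, for each splicing event and library, the authors' raw counts of reads of the alternative form and of other reads, per the file headers; no normalization had been applied. CASAVA 1.8.2, GSNAP and TAIR10 are listed, per the submitters' processing notes. The sources used here do not give the tool that classified the events or the rule that counted reads within introns. IR was read as intron retention from its columns.

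Introns were placed on RefSeq TAIR10.1 transcripts, whose chromosomes have the lengths of TAIR10. Among transcripts with enough introns for the listed junction numbers, the one whose introns abut most listed shifted sites was taken, then older models, then the longest coding sequence. On it 99.4% of 16309 shifted sites touched the intron of their number, and on the lowest-numbered transcript 91.6%. For 92.3% of placed members all equally good older transcripts gave the same place. Positions are 1-based. Near copies were found with blastn 2.17.0 (98% identity over 90% of the intron). Gene names come from RefSeq.

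The single group allows no comparison of conditions and no count model. Levels of 62849 nuclear events were compared across libraries with a chi-square homogeneity test where other reads exist (scipy 1.17.1), with Benjamini-Hochberg adjustment at 0.05. It takes reads as independent. Depth is given by junction reads. Intervals are Wilson 95% intervals and cover counting error only. The members and the gene lists were chosen with earlier results of these data known. Named introns are those with the most reads, ranges, skip reads or members per gene, those in listed genes, at the threshold or at the extremes of junction depth, and the most read ones free of exons or with an open frame. Alternatives covered read and level minimums, the chosen transcript, the test and its threshold, and each replicate left out.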

Additional observations from a re-analysis of the deposited data

How the results depend on the processing

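Without a minimum of retained reads there were 2022 members with a median level of 96.5%, against 1267 and 93.7%. Under the other choices (5 or 20 reads, summed reads, a mean level of 40% or 60%, skip reads in the total, or a replicate left out) there were 1023 to 1581. At a threshold of 0.01, 69 members and 3662 nuclear events differed between libraries, against 119 and 6388 at 0.05. With a replicate left out they were 29 to 78 members and 2054 to 3806 events, over fewer samples. The share of members inside an exon of another transcript was 37.1%, and 25.97% of the 1009 members placed on the lowest-numbered transcript. It was 40.5% with 20 reads and 40.9% without near copies and exons of other genes, a choice made after the data were seen. On the lowest-numbered transcript the median length was 127 nt, against 136 nt. The causes were not tested. Stop codons and lengths divisible by 3 moved little under the choices tried. Splice-site scores moved little among members with a settled place and among those without near copies and exons of other genes. The scores were not recomputed on the lowest-numbered transcript, with 20 reads or with a replicate left out. No paired analysis was possible because the 3 libraries form 1 group. Depth limits members with few reads: a level of 100% on such reads says little of rare spliced forms. Intervals cover counting error only.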
